A study of Mus musculus with 18 samples.

Results

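CTCF occupancy of the autosomes was compared between hearts of *Trdn-as* KO mice and WT hearts by chromatin immunoprecipitation and sequencing (ChIP-seq). All peaks of the deposited table on chromosomes 1 to 19 were taken, which were 99188 of the 101256 union peaks, and 59341 of them were tested, those with 2 or more of the 6 CTCF libraries at a value of 10 or higher. The comparison rests on 4 of the 18 samples of the series, 2 CTCF libraries from *Trdn-as* KO and 2 from WT. In *Trdn-as* KO mice a polyA site had been inserted with Cas9 into the first exon of *Trdn-as*, an antisense transcript of the triadin gene, in mouse embryonic stem cells, and chimeras were backcrossed to C57BL/6 and bred to homozygosity. The controls are labelled WT, with no further allele named. The 2 further CTCF libraries in the model came from *Mettl3* KO hearts, in which Mettl3lox/lox was recombined by a tamoxifen-dependent Cre driven in cardiomyocytes by the alphaMHC promoter. Chromatin came from ventricles of 2 adult hearts. The labels do not say whether replicate libraries came from separate hearts, so the p-values measure only the spread between these libraries.

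CTCF is a zinc-finger protein that binds a long DNA motif and, where it meets a cohesin ring extruding a chromatin loop, stops it, so that pairs of CTCF sites anchor loops and borders of topological domains. Many of its sites are shared between tissues, and others lie at promoters. A ChIP-seq signal at a site depends on how much of the factor is bound, on how much DNA of that site is in the sample and on how well its reads can be placed on the reference genome.

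The coordinates of the peaks are those of GRCm39, and promoter sequence was read from RefSeq windows of GRCm38.p6 by gene symbol. The 250 bases before the annotated start are shown 5′ to 3′ for 4 genes whose CTCF promoter peak changed and had its centre within 250 nt of a start site. *Zfp760*, *Zfp677* and *Zfp994* are zinc-finger genes of chromosome 17 whose peaks moved in different directions, and *Slc37a2*, a sugar-phosphate transporter, lies in a stretch of chromosome 9 described further on. Capitals mark a match to the pattern CC, any 3 bases, AG, any 2 bases, GGC, the conserved core of the CTCF motif, searched on both strands.
Zfp760 (chr17:21707491-21707740, plus strand): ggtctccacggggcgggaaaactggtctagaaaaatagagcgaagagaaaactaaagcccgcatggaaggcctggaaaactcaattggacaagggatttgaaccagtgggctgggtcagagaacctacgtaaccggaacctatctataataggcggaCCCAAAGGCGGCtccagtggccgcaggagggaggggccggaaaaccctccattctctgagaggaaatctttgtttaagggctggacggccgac
Zfp677 (chr17:21383498-21383747, plus strand): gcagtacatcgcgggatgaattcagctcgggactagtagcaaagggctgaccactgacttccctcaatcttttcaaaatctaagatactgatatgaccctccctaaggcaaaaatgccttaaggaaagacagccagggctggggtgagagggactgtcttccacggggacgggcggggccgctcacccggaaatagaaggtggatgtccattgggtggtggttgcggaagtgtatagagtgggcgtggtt
Zfp994 (chr17:22225615-22225864, minus strand): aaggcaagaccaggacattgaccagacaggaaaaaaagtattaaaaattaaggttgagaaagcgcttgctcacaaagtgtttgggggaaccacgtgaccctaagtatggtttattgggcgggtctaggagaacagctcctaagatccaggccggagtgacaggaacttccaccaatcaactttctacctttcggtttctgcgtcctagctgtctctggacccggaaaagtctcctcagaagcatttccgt
Slc37a2 (chr9:37255739-37255988, minus strand): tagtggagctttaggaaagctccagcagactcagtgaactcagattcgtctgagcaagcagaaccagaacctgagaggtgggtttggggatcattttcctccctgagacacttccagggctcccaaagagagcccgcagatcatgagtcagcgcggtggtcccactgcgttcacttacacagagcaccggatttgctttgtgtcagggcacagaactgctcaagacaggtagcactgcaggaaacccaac

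The pattern was found at bases 158 to 169 of the *Zfp760* window and in none of the other 3 windows shown. Genes of chromosome 18 with a changed peak were left out of this search. Among the 13 genes elsewhere with such a near-centred peak and a window, *Zfp760* was the only one with a match, and 7.17% of the 32851 RefSeq windows of this length held one.

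The 2 CTCF libraries of *Trdn-as* KO hearts held an estimated 8142774 and 6789496 reads in peaks, and those of WT hearts 7574136 and 10163792, with a read worth between 0.284 and 0.458 units of the deposited normalized value. As a check of the tissue, Pol II summed over the promoter peaks of 7 cardiomyocyte genes was 24728 and 26544 in the WT libraries against 25181 and 19606 without *Trdn-as*, with 2 of the 7 lower in both libraries and 5 overlapping. The sums were 1113 and 1210 against 1320 and 991 for endothelial, 191 and 228 against 198 and 153 for leukocyte, 1277 and 1392 against 1795 and 1301 for fibroblast and 153 and 155 against 177 and 156 for skeletal muscle genes. Of 3 hepatocyte genes, *Alb* and *Ttr* had no promoter peak and *Apoa1* stood at 22 and 19 against 36 and 37. *Trdn-as* KO was above WT in both libraries at 2 of 5 fibroblast genes, *Col1a1* and *Col3a1*. Of the 4 skeletal muscle genes with a promoter peak, 2 were above WT and 1 below. Of 4 such leukocyte genes 1 was above and 1 below, and of 4 such endothelial genes 1 was below. How often groups separate over all Pol II peaks was not counted. The part of these levels in the CTCF results was not tested. Pol II at the widest of the *Trdn-as* promoter peaks, chr10:33129849-33132974, fell from 530 and 595 to 140 and 100 (log2 fold change -2.24 ± 0.18 SE, limma, adjusted p = 2.78e-14), in the direction of the label. The 6 peaks on the Y chromosome summed to 79 and 80 in the CTCF libraries of WT hearts, to 51 and 50 in those of *Mettl3* KO hearts and to 0 in both of *Trdn-as* KO hearts. Sex of the hearts and *Trdn-as* genotype cannot be told apart in any of the results that follow.

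CTCF changed at 297 of the 59341 autosomal peaks, 0.5% of those tested (limma on log2(value + 1), Benjamini-Hochberg adjusted p under 0.05 over 60649 peaks). It was higher in *Trdn-as* KO at 156 peaks, 0.263% of those tested, and lower at 141, 0.238%. The median log2 fold change was 0.97 over the higher peaks and -1.24 over the lower peaks, against 0.04 over all peaks tested. The size of the change reached 1 on the log2 scale at 76 higher and 99 lower peaks, and 2 at 20 and 27. At all 297 peaks both *Trdn-as* KO values lay outside the WT values, which was the case at 32.3% of all peaks tested. The *Mettl3* KO hearts, compared with the same WT libraries, had a median log2 fold change of 0.02 at the higher and -0.14 at the lower peaks, and of -0.06 over all peaks tested.

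The count depended on having all 6 libraries in the model. Without either WT library limma called 0 peaks, with 6337 and 4687 at an unadjusted p under 0.05, without *Trdn-as* KO replicate 1 or 2 it called 1 and 2, and without *Mettl3* KO replicate 1 or 2 it called 14 each time. With the WT and *Trdn-as* KO libraries alone it called 12, with no filter 34 and with no variance trend 121. With the replicate number as a block it called 188, and scaling by the uniquely mapped reads turned the split to 129 higher and 214 lower. Median scaling, quantile and cyclic loess normalization also gave more lower than higher peaks.

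The clearest losses were peaks that nearly vanished in *Trdn-as* KO hearts. The peak chr9:48606907-48607742 inside *Zbtb16*, which encodes a zinc-finger transcription factor, stood at 76 and 77 in the WT libraries, dropped to 3 and 1 in *Trdn-as* KO and remained at 75 and 75 with *Mettl3* KO. Both *Trdn-as* KO libraries thus lay near 0 and the other 4 close together, and the log2 fold change was -4.78 ± 0.24 (SE, limma adjusted p = 1.31e-09). Beside *Zfp974*, a zinc-finger gene of chromosome 7, chr7:27641351-27641876 fell from 43 and 39 to 0 and 1 (-4.89 ± 0.29, adjusted p = 1.15e-08). The promoter peak of *Zfp974* itself, 4110 nt from its start, was weak and fell from 14 and 12 to 0 and 1 (-3.30 ± 0.39, adjusted p = 8.01e-05). In the same run of chromosome 7 a strong peak close to *Ltbp4*, which encodes a binding protein of latent TGF-beta, fell from 171 and 138 to 47 and 43, with 144 and 135 in *Mettl3* KO (-1.75 ± 0.11, adjusted p = 4.75e-08). That peak kept part of its signal, and its groups did not overlap, as at every changed peak. On chromosome 5, chr5:23695753-23696291 inside *Kmt2e*, a gene of a chromatin regulator, went from 38 and 31 to 1 and 2 (-3.85 ± 0.25, adjusted p = 5.06e-08). Further upstream, in an interval with no protein-coding promoter peak for 418106 nt, chr5:23220539-23221333 went from 37 and 28 to 1 and 0, with 19 and 17 in *Mettl3* KO (-4.55 ± 0.33, adjusted p = 2e-07). At this peak the *Mettl3* KO libraries were also below WT, though well above *Trdn-as* KO. The other libraries fell there as well, IgG from 41 to 0 and Pol II from 35 and 33 to 0 and 6 (-3.73 ± 0.64, adjusted p = 0.000253), and the IgG value of WT was above its CTCF values. Both *Trdn-as* KO values were at most 5 at 39 of the 141 lower peaks, and both were 0 at 7 of these.

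Partial losses were also among the 12 lower peaks with the smallest adjusted p. The peak chr19:47370553-47371272 inside *Sh3pxd2a*, which encodes a podosome scaffold, went from 79 and 71 to 25 and 25 (-1.55 ± 0.13, adjusted p = 1.65e-06). Near *Slc9a3r2*, a PDZ-domain scaffold of membrane transporters, chr17:24872776-24873772 went from 136 and 126 to 59 and 59 (-1.14 ± 0.10, adjusted p = 3.34e-06). In *Lmo7*, chr14:102116163-102117133 went from 46 and 43 to 10 and 12 (-1.93 ± 0.17, adjusted p = 3.34e-06). The *Mettl3* KO values of these peaks were 61 and 59, 118 and 130, and 40 and 33. They lay above both *Trdn-as* KO values at each of the 3 peaks.

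Gains were found as well. The peak chr13:120198321-120199029 inside *Nim1k*, a kinase gene, was near background at 2 and 3 in both the WT and the *Mettl3* KO libraries and reached 77 and 59 in *Trdn-as* KO (4.30 ± 0.31, adjusted p = 1.37e-07). Of the 2 peaks between at most 5 in one genotype and at least 50 in the other, this was the gain and the *Zbtb16* peak the loss. The lncRNA promoter peak chr5:23916462-23918193, between *Kmt2e* and *Pus7*, rose from 58 and 66 to 150 and 169 (1.35 ± 0.11, adjusted p = 1.23e-06), and lies in the same run of chromosome 5 as the lost peaks of *Kmt2e*. On chromosome 1, chr1:174946457-174947127 in *Rgs7*, a regulator of G protein signalling, rose from 14 and 16 to 63 and 70 (2.08 ± 0.17, adjusted p = 1.4e-06). In *Cadm3*, a cell adhesion gene of the same run, chr1:173166891-173167661 rose from 37 and 33 to 90 and 107 (1.46 ± 0.15, adjusted p = 1.34e-05). The *Mettl3* KO values, 13 and 15 in *Rgs7* and 25 and 30 in *Cadm3*, were near or below WT. A different order was seen at chr7:112068656-112069871 in *Parva*, an integrin-linked actin-binding protein gene, with 68 and 60 in the WT libraries, 116 and 129 without *Trdn-as* and 111 and 113 without *Mettl3* (0.93 ± 0.11, adjusted p = 6.75e-05), where the *Mettl3* KO libraries sat beside *Trdn-as* KO. Of the 156 higher peaks, 27 had both WT values at 5 or less, and none had both at 0. The filter asks for a value of 10 in 2 libraries. A peak below 10 in WT and *Mettl3* KO, as in *Nim1k*, was therefore tested only because *Trdn-as* KO was high. Losses could enter through the WT or the *Mettl3* KO libraries, so the counts of near-empty gains and losses are not comparable.

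**Figure D1:**
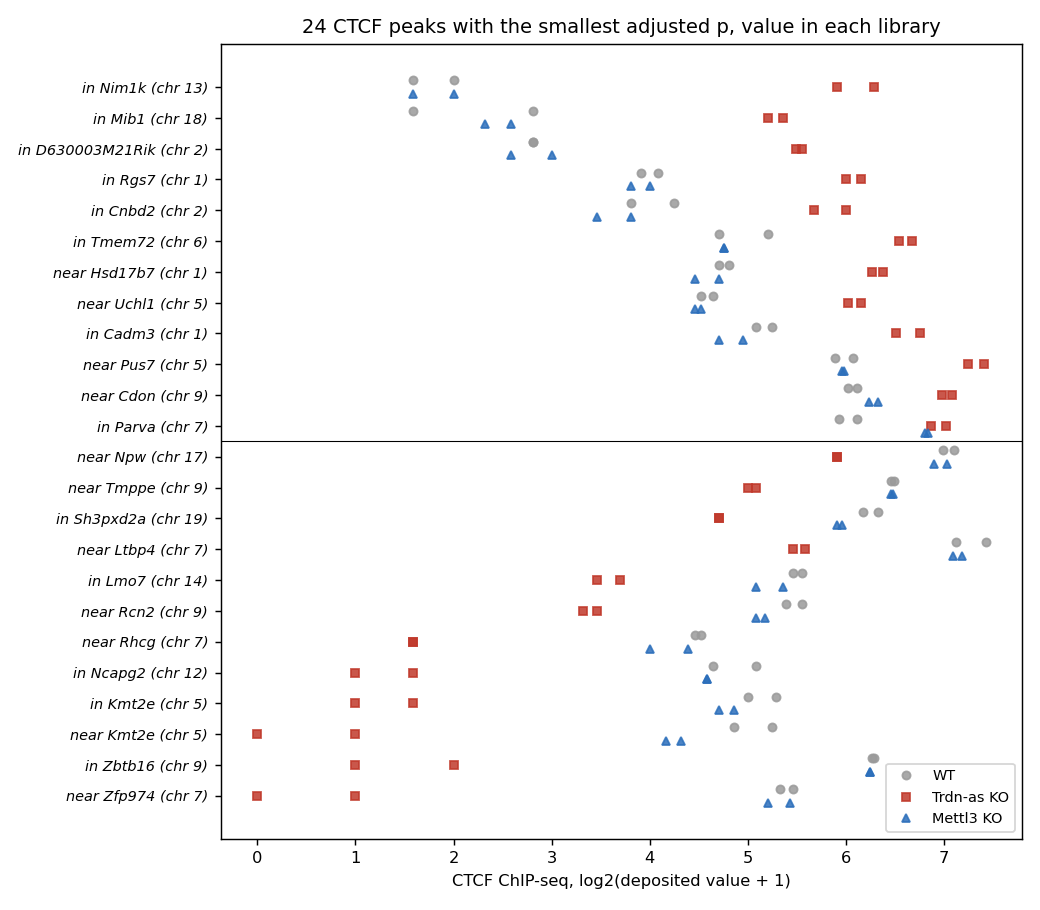
CTCF value in each library, as log2(deposited value + 1), at the 12 higher and 12 lower peaks with the smallest adjusted p, named by the protein-coding gene that holds them or lies nearest. Grey circles are WT, red squares *Trdn-as* KO and blue triangles *Mettl3* KO, 2 libraries each. The peaks were chosen with the squares apart from the circles, so that separation is not a result. The blue triangles lie with the circles in most lines but beside the squares in *Parva*.

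By mean CTCF value, the 5 strongest higher and 5 strongest lower peaks had log2 fold changes between 0.27 and 0.67 and between -0.42 and -1.75, the last at the *Ltbp4* peak given above. Among the higher peaks, the one with the largest mean lay in *Ldb3*, which encodes a Z-disc protein of the sarcomere, and went from 338 and 347 to 425 and 404, with 391 and 404 in *Mettl3* KO (0.27 ± 0.06, adjusted p = 0.0314). IgG was as high there, at 433 for WT and 381 for *Trdn-as* KO, and Pol II of WT stood at 2659 and 2772, so the size of this peak is not particular to CTCF. The promoter peak of *Fgf1*, a growth factor gene, went from 210 and 212 to 277 and 259 (0.34 ± 0.07, adjusted p = 0.0282). Their *Mettl3* KO values differ in place, since both lay above WT at *Ldb3* and they were 212 and 216 at *Fgf1*. Among the lower peaks, the promoter peak of *Gsk3a*, a glycogen synthase kinase, had the largest mean and went from 251 and 226 to 162 and 178 (-0.49 ± 0.08, adjusted p = 0.00342). The promoter peak of *Arhgap26*, a GTPase-activating protein, followed, from 227 and 217 down to 158 and 173 (-0.42 ± 0.08, adjusted p = 0.0115). A pair of strong distal peaks on chromosome 6 near *Clec2g* moved in opposite directions, chr6:128736701-128738571 from 171 and 172 to 245 and 221 (0.44 ± 0.08, adjusted p = 0.00916) and chr6:128775348-128777320 from 210 and 205 to 161 and 145 (-0.44 ± 0.08, adjusted p = 0.0106).

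By strength, the share of peaks called in either direction was 0.599% in the weakest of 5 classes of nearly equal size, cut by the mean over the 6 libraries, 0.437%, 0.559% and 0.515% in the next 3 and 0.389% in the strongest. Their size narrowed with strength. The median log2 fold change of higher peaks was 2.04 in the weakest class, with means up to 12.7, and 0.59 in the strongest, with means from 75.5, and that of lower peaks was -1.88 and -0.59. The smallest change that was called had a size of 1.13 in the weakest and 0.27 in the strongest class, as the median SE fell from 0.28 to 0.10, so changes below about these sizes were not detectable in weak peaks. The strongest class held 34 higher and 12 lower peaks, but 14 and 12 without the chromosome 9 stretch. Under cyclic loess normalization, which removes the drift of the median log2 fold change from 0 in the weakest to 0.08 in the strongest class, it held 36 higher and 52 lower peaks, so its direction turned with the scaling.

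**Figure D2:**
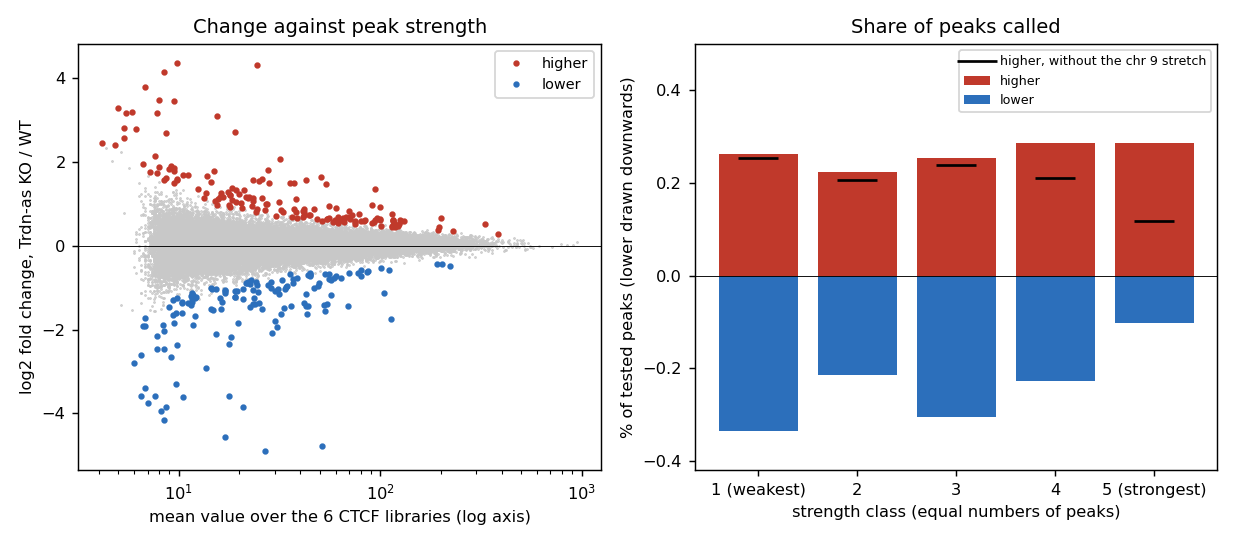
Left, log2 fold change between *Trdn-as* KO and WT against the mean value over the 6 CTCF libraries (log axis) for the 59341 tested autosomal peaks, with called peaks in red (higher) and blue (lower). Right, percent of tested peaks called higher (up) and lower (down) in each of the 5 classes of strength, with black dashes for higher peaks without the chromosome 9 stretch; the dash falls from 0.287% to 0.119% in the strongest class.

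At promoters, defined by the deposited annotation as within 5000 nt of a start site, 104 of 24050 peaks changed (0.432%, 57 higher and 47 lower), and at distal positions 193 of 35291 (0.547%, 99 higher and 94 lower). Promoter peaks were the stronger class, with a median mean value of 41.4 against 23. Within classes of strength the order was not constant. In class 4 of 5 0.292% of promoter and 0.73% of distal peaks changed, in the strongest 0.409% and 0.365%, and in class 2 0.526% and 0.397%. The difference between promoter and distal peaks was not tested. Within 1000 nt of a start site 43 of 12234 peaks changed (0.351%). The median log2 fold change of the lower promoter peaks was -1.04 and that of the lower distal peaks -1.37.

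Among the 104 changed promoter peaks, 67 belonged to protein-coding genes. Of the higher ones of named genes with a mean of at least 50, that of *Ptgfr*, the prostaglandin F receptor gene, rose most, from 39 and 41 to 69 and 90 (0.96 ± 0.15, adjusted p = 0.0018). The promoter peaks of *Mcur1*, a gene of mitochondrial calcium uptake, and *Ctsh*, a cathepsin gene, rose from 95 and 67 to 120 and 127 and from 51 and 45 to 74 and 73 (0.62 ± 0.13 and 0.61 ± 0.12, adjusted p = 0.033 and 0.0255). Of the lower ones, that of *Depdc1b* went from 64 and 55 to 32 and 36, with 78 and 68 in *Mettl3* KO (-0.79 ± 0.14, adjusted p = 0.00684). That of *Cxcl1*, a neutrophil chemokine gene, went from 79 and 77 to 47 and 44 (-0.77 ± 0.12, adjusted p = 0.0022). That of *Cep55*, a cytokinesis gene, went from 115 and 118 to 87 and 70 (-0.57 ± 0.11, adjusted p = 0.0139). The WT and *Trdn-as* KO values were separated at each of these 6 peaks, as at all 297 changed peaks and at 32.3% of all peaks tested. At *Unc45bos*, an lncRNA gene, 72 and 72 in the WT libraries stood against 46 and 44 without *Trdn-as* and 46 and 39 without *Mettl3* (-0.67 ± 0.13, adjusted p = 0.02), with both knockouts below WT. IgG went from 66 to 118 at *Unc45bos* and from 25 to 59 at *Depdc1b*, above CTCF in *Trdn-as* KO at both. At the other peaks named in this paragraph IgG was below CTCF in both genotypes.

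Zinc-finger genes named Zfp were by far the longest of 17 gene lists and the one with changed promoter peaks. Of their 405 tested promoter peaks, 4 were higher and 5 lower (2.22% in either direction, against 0.432% of all tested promoter peaks), with a median log2 fold change of -0.03 over the list and 0.01 over all tested promoter peaks. At an unadjusted p under 0.05 limma counted 38 of the 405, 9.38%, against 9.49% of all tested promoter peaks. By that share the list did not stand out. Of its 9 changed peaks, 5 lay on chromosome 17 between *Zfp960* and *Zfp40*. The *Zfp760* peak, 82 nt from the start and with the motif match shown above, went from 28 and 28 to 63 and 60 (1.11 ± 0.17, adjusted p = 0.00178). The *Zfp677* peak, 26 nt from the start, went from 95 and 95 to 60 and 64 (-0.61 ± 0.11, adjusted p = 0.00674), and the *Zfp994* peak from 50 and 39 to 20 and 24 (-0.98 ± 0.17, adjusted p = 0.00593). Higher values were found at *Zfp960*, with 35 and 35 in WT against 60 and 58, and at *Zfp40*, with 23 and 25 against 44 and 41 (0.74 ± 0.14 and 0.80 ± 0.15, adjusted p = 0.0127 and 0.0149). IgG of WT stood at 51, 41 and 38 at *Zfp760*, *Zfp960* and *Zfp40*, above CTCF of WT. It was below CTCF of WT at the other changed peaks of the list. These genes belong to families of related sequences, and how reads were placed among them was not tested. The promoter peak of *Zfp598*, a ribosome quality control ubiquitin ligase gene, went from 58 and 57 to 92 and 96 (0.70 ± 0.12, adjusted p = 0.00492), that of *Zfp607b* from 30 and 29 to 17 and 13 (-0.94 ± 0.18, adjusted p = 0.0155) and that of *Zfp469* from 114 and 108 to 76 and 77 (-0.53 ± 0.10, adjusted p = 0.0118).

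In lists of this size the share of 0.432% gives less than 1 changed peak each, so a count of 0 says little. It was 0 for the promoter peaks of CTCF and cohesin genes (14 peaks), calcium release and excitation-contraction coupling (36), sarcomere (32), cardiac stress (13), cardiac transcription factors (47), clock (29), clustered protocadherins (45), Hox (23), imprinted (42), MHC (23), olfactory and vomeronasal receptors (35), or drug metabolism families (53). At an unadjusted p under 0.05 limma counted 0, 3, 2, 0, 7, 1, 9, 0, 2, 2, 4 and 6 of them, in that order, against 9.49% of all tested promoter peaks. That share was 20% in the clustered protocadherins and 14.9% in the cardiac transcription factors, and between 0 and 11.4% in the other 10 lists. The clustered protocadherins, whose promoters are chosen through CTCF sites, ranged from -0.84 to 0.66 with a median of 0. The lists of other cell types held 0 changed peaks as well, among 19 endothelial, 3 leukocyte, 21 fibroblast and 18 skeletal muscle promoter peaks, with 1, 0, 4 and 2 at an unadjusted p under 0.05 (19% of the fibroblast peaks).

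Pol II libraries of the same genotypes gave a readout that did not enter the CTCF test. Where CTCF was higher, 83 of 156 peaks were tested for Pol II, and their median Pol II log2 fold change was 0.71, above 0 at 74. Where CTCF was lower, 84 of 141 were tested, with a median of -0.84 and 10 above 0. Over all tested CTCF peaks the Pol II median was -0.06 and 42.6% were above 0. Pol II itself was called higher at 8 of the 83 and lower at 17 of the 84, with none called against the direction of CTCF, against 0.272% of all 51806 autosomal peaks tested for Pol II in either direction. A mean Pol II value of at least 50 was found at 17.9% of the higher and 17% of the lower CTCF peaks and at 27.2% of all tested, so most changed peaks had little Pol II. The IgG signal moved with these peaks too. Its sum in *Trdn-as* KO over WT was 0.639 at the lower peaks and 1.01 at the higher peaks outside the chromosome 9 stretch, against 0.871 over all tested peaks, with 1 IgG library per genotype. The CTCF mean of the WT libraries was above the WT IgG value at 211 of the 297 changed peaks (71%) and at 66.9% of all tested. The normalized scale is common to all libraries, and 1 IgG read is worth 2.55 to 6.56 units on it. The part of the IgG signal, and of the Pol II signal, in the CTCF differences was not tested.

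The promoter peaks named next were chosen after their Pol II values were seen. At *Olfml2b*, an extracellular matrix gene, CTCF went from 26 and 30 to 10 and 10 (-1.40 ± 0.18, adjusted p = 0.00031) and Pol II from 154 and 200 to 24 and 39 (-2.48 ± 0.26, adjusted p = 5.14e-10). At *Ceacam1*, a cell adhesion gene, CTCF went from 22 and 25 to 10 and 11 (-1.09 ± 0.20, adjusted p = 0.0127) and Pol II from 113 and 112 to 31 and 18 (-2.20 ± 0.29, adjusted p = 7.42e-07). IgG went from 41 to 26 at *Olfml2b* and from 23 to 0 at *Ceacam1*, and the CTCF values of WT were below its IgG value at the first and level with it at the second. All 3 readouts were thus lower in *Trdn-as* KO. At *Lefty1*, a gene of TGF-beta signalling, CTCF went from 2 and 4 to 15 and 13 (1.95 ± 0.39, adjusted p = 0.0232) and Pol II from 7 and 4 to 49 and 53 (3.04 ± 0.67, adjusted p = 0.0136). In *Lmo7*, chr14:102104418-102105503 had 18 and 18 against 8 and 9 for CTCF (adjusted p = 0.0425) and 54 and 100 against 7 and 12 for Pol II (-2.87 ± 0.34, adjusted p = 3.31e-08).

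**Figure D3:**
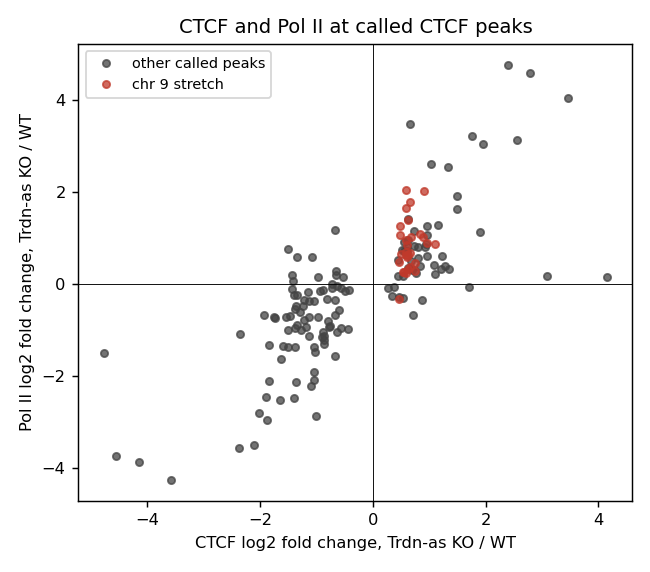
Pol II log2 fold change (vertical axis) against CTCF log2 fold change (horizontal axis), both *Trdn-as* KO over WT, at the 167 called CTCF peaks also tested for Pol II; red points lie in the chromosome 9 stretch. Most points lie in the upper right and lower left, 74 of 83 higher peaks above 0 and 10 of 84 lower peaks above 0.

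Along the chromosomes the changed peaks were unevenly spread. Chromosome 9 held 69 of them among 3342 tested (2.06%, 52 higher and 17 lower), chromosome 18 held 20 of 1942 (1.03%), chromosome 7 held 31 of 3989 (0.777%) and chromosome 1 held 30 of 3954 (0.759%). Chromosome 4, with 4000 tested, and chromosome 10, with 3076, held 0, with 334 and 257 peaks at an unadjusted p under 0.05 by limma (8.35% and 8.36%, against 9.94% on all autosomes), and robust and cyclic loess fits called 2 and 4 on chromosome 10 and 5 and 3 on chromosome 4. Chromosome 8 held 2 of 3377 and chromosome 16 held 1 of 1949. Outside its stretch of higher peaks, chromosome 9 still held 35 of 3242 (1.08%, 18 higher and 17 lower).

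**Figure D4:**
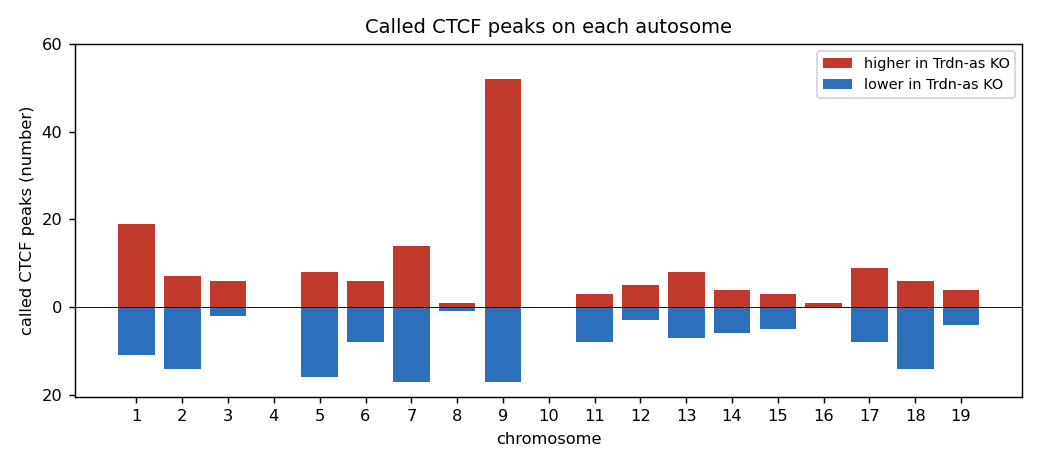
Number of called CTCF peaks on each autosome, higher in *Trdn-as* KO drawn upwards and lower drawn downwards. Chromosome 9 stands out with 52 higher peaks, while chromosomes 4 and 10 have no bar.

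Chromosome 10 carries the targeted locus. The widest *Trdn-as* promoter peak, chr10:33129849-33132974, had CTCF values of 52 and 49 in the WT libraries, 36 and 40 without *Trdn-as* and 51 and 52 without *Mettl3*. The *Trdn-as* KO values were the lowest, but the difference did not pass the test (-0.40 ± 0.13, adjusted p = 0.308). The other 4 union peaks at this promoter had CTCF means between 1 and 8 and were not tested. There was no changed CTCF peak within 5000000 nt of it.

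Changed peaks lay near each other. Of the 297, 220 (74.1%) had another changed peak within 1000000 nt, and 16.9% of the other tested peaks had a changed peak that near. Without the chromosome 9 stretch the figures were 71.1% and 16.8%, and within 100000 nt, over all autosomes, 31.7% and 3.86%. The median distance to the nearest changed peak was 299140 nt for a changed peak. Of 500 windows of 5000000 nt, 106 held a changed peak, and 17 held 5 or more, which together had 47.8% of the changed and 5.44% of the tested peaks. Of the windows, those with no changed peak held 73.3% of the tested peaks. Joined where gaps were at most 1000000 nt, the changed peaks formed 131 runs, 54 of them with 2 or more members, and 27 of these 54 ran in 1 direction. These are descriptions, as neighbouring peaks are not independent.

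Most large runs were mixed in direction. The run chr1:169344816-174947127 held 17 changed among 182 tested peaks, 12 higher and 5 lower. Its members included the higher peaks in *Rgs7* and *Cadm3* and a lower peak in *Nuf2*, a kinetochore gene, at chr1:169344816-169346117 which went from 76 and 61 to 30 and 29 (-1.18 ± 0.14, adjusted p = 6.75e-05). The run chr7:27000791-29917184, with *Ltbp4* and *Zfp974*, held 9 of 217, 3 higher and 6 lower. In chr5:23220539-25807459, with *Kmt2e*, 8 of 128 changed, 2 higher and 6 lower. In chr17:24462565-25687536, with *Slc9a3r2* and *Zfp598*, it was 8 of 99, 3 higher and 5 lower, among them chr17:24759122-24759992 near *Rab26*, which went from 66 and 67 to 23 and 27 (-1.38 ± 0.13, adjusted p = 8.49e-06). The short run chr6:128335735-129044475, with the pair of strong peaks near *Clec2g*, held 7 of 35, 4 higher and 3 lower. In chr9:114244558-114782442 all 5 changed peaks were lower, from -1.37 to -4.15. The median log2 fold change over all peaks tested inside these 6 runs lay between -0.12 and 0.12.

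One stretch of chromosome 9 held higher peaks alone. It joins changed peaks across gaps of up to 5000000 nt, and with gaps of at most 1000000 nt it falls into 3 runs of 15, 18 and 1 changed peaks. In chr9:34772971-38865652, 34 of 100 tested peaks changed, all higher, and 99 of the 100 had a log2 fold change above 0. The median was 0.56 (quartiles 0.44 and 0.66), a fold of 1.47, and it was 0.49 over the peaks that were not called. No other window of 5000000 nt with at least 30 tested peaks came near, since the median was 0.56 in the window of the stretch from 35000001 to 40000000, 0.21 in the next highest and -0.08 in the lowest of 438. The change was alike at promoter and distal peaks (medians 0.53 over 43 and 0.59 over 57) and in the weaker and stronger 50 peaks (0.58 and 0.55), whereas 5 of the weaker and 29 of the stronger were called. In *Mettl3* KO the median in the stretch was -0.08. The borders were set by the changed peaks themselves, so these values describe the stretch and do not test it.

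The log2 fold changes of the 100 tested peaks of the stretch ranged from -0.26 to 1.79, with an SD of 0.28 against 0.27 over all tested peaks, and those of its changed peaks began at 0.46. The promoter peak of *Pknox2*, a homeodomain transcription factor gene, went from 154 and 164 to 260 and 246, with 186 and 187 in *Mettl3* KO (0.67 ± 0.08, adjusted p = 6.75e-05). The strong peak of *Esam*, an endothelial adhesion gene, went from 320 and 299 to 416 and 480, with 238 and 235 in *Mettl3* KO (0.53 ± 0.07, adjusted p = 0.000459). *Trdn-as* KO was thus highest at both, while *Mettl3* KO lay above WT at the first and below it at the second. The *Srpr* peak, at the gene of the signal recognition particle receptor, went from 108 and 90 to 142 and 158 (0.60 ± 0.11, adjusted p = 0.00856). Its neighbour *Foxred1*, which encodes a complex I assembly factor, went from 62 and 59 to 89 and 100 (0.63 ± 0.12, adjusted p = 0.0115), and *Dcps*, an mRNA decapping scavenger, from 59 and 54 to 86 and 93 (0.65 ± 0.12, adjusted p = 0.015). IgG went from 87 to 118 at *Foxred1*, above CTCF in both genotypes. At *Dcps* it went from 53 to 131, above CTCF in *Trdn-as* KO. It was below CTCF in both genotypes at the *Pknox2*, *Esam*, *Srpr* and *Slc37a2* promoter peaks. *Slc37a2*, with its peak centre 3 nt from the start, went from 86 and 64 to 118 and 112 (0.62 ± 0.13, adjusted p = 0.0255). A distal peak in *Kirrel3*, chr9:34894459-34895581, went from 86 and 85 to 135 and 131 (0.63 ± 0.10, adjusted p = 0.00256). Larger changes were seen at weak distal peaks in *Pknox2*, chr9:36946440-36947017, from 12 and 17 to 44 and 43 (1.54 ± 0.19, adjusted p = 0.000216), and in *Kirrel3*, chr9:34772971-34773567, from 24 and 20 to 44 and 49 (1.05 ± 0.17, adjusted p = 0.00325). Near *Cdon*, which encodes a co-receptor of hedgehog signalling, a stronger peak, chr9:35434843-35436021, rose from 68 and 64 to 125 and 134 (0.96 ± 0.11, adjusted p = 4.55e-05).

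Pol II and IgG libraries moved in the same stretch by a like amount. Over its 157 union peaks the CTCF sum was 4710 and 4511 for WT, 6799 and 6921 for *Trdn-as* KO, and 4417 and 4441 for *Mettl3* KO. The Pol II sum was 6760 and 6946, 10358 and 8911, and 7832 and 7726 in the same order. The IgG sum was 3452 in the single WT, 4323 in the single *Trdn-as* KO and 3260 in the single *Mettl3* KO library. As a share of the autosomal sum of each library, *Trdn-as* KO stood to WT as 1.44 for CTCF (1.43 to 1.46 over the 4 pairs of libraries), 1.45 for Pol II (1.42 to 1.49) and 1.45 for IgG (95% interval 1.32 to 1.59, from 659 and 1356 estimated reads, exact binomial and for counting error only). *Mettl3* KO stood to WT as 0.995, 1.02 and 0.988. In the 3000000 nt to the left the *Trdn-as* KO ratios were 1, 0.941 and 1.01, and to the right 1.01, 1.03 and 0.944. The number of DNA copies of the stretch was not tested, and input DNA was not used here.

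The rise began before the first changed peak. The 13 tested peaks next to it on the left, over 928 kb, had log2 fold changes from 0.20 to 0.67, none of them called, and the next peak, 1006 kb away, stood at -0.09. The remaining 69 tested peaks of the left flank had a median of -0.04, with 29 above 0. On the right, 70 peaks had a median of 0.02, with 36 above 0 and none called.

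**Figure D5:**
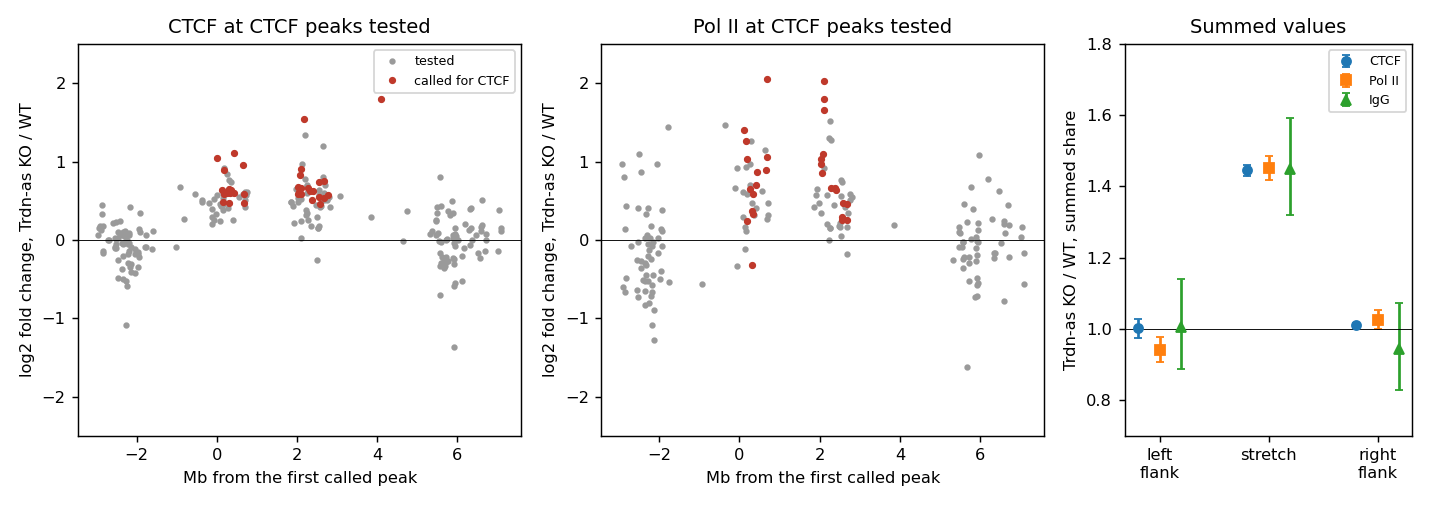
Log2 fold change, *Trdn-as* KO over WT, of CTCF (left) and Pol II (middle) at tested CTCF peaks by distance in Mb from the first called peak of the chromosome 9 stretch, with peaks called for CTCF in red. Right, *Trdn-as* KO over WT of the summed share of each library in the stretch and its flanks, with bars for the range over library pairs (CTCF, Pol II) or the 95% interval (IgG); all 3 lie near 1.45 in the stretch and near 1 in the flanks.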

How the data were processed

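ChIP-seq libraries of CTCF, Pol II and IgG from hearts of the 3 genotypes were used, 15 columns of single libraries. The authors trimmed reads with Trimmomatic 0.39, aligned them to mm39 with STAR 2.7.11b, removed duplicates with Picard 3.1.1, called peaks with MACS, counted reads per union peak with featureCounts and normalized with DESeq2 1.36.0. The deposited values are scores: these normalized counts rounded to whole numbers, so limma on log2(value + 1) was used and no count test. Promoter peaks carry the deposited annotation, and genes named for distal peaks are protein-coding genes with a promoter peak in the table. Zfp genes share sequence, and multi-mapping reads had been removed.

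Peaks at 10 or higher in 2 or more of the 6 CTCF libraries were fitted with 3 genotypes and a variance trend (limma 3.58.1, R 4.3.3), and p-values were adjusted over the whole table. The spread was shared over the genotypes. The read number of a library was estimated from the spacing of its values, which is below 1 in the CTCF libraries of WT and *Trdn-as* KO and could not be read in those of *Mettl3* KO. The fit was tested on simulated data. Python 3.11.15 with pandas 2.3.3, numpy 2.4.6 and scipy 1.17.1 made the summaries and matplotlib 3.10.9 the figures. Replicate numbers did not pair the libraries (see the closing section), so the main fit has no block.

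Named peaks were the 12 per direction with the smallest adjusted p and separated groups, the 5 strongest, up to 10 promoter peaks with the largest change and a mean of at least 50, peaks at *Trdn-as*, up to 4 members of the 5 largest runs, members of the gene lists, and peaks passing from at most 5 to at least 50. The peaks, gene lists and tests were chosen with earlier results of these data known.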

Additional observations from a re-analysis of the deposited data

Results flagged for a closer look

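The IgG libraries, to which no model was fitted, carried a signal in the stretch of chromosome 9. As a share of its autosomal sum, IgG of *Trdn-as* KO stood at 1.4504 times WT there, above the ratios of 1.01 and 0.944 in the flanks, with 1 library per genotype.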

How the results depend on the processing

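Of 63 named peaks, none reversed its direction under any alternative run for it, but in 497 of 1211 such fits a peak no longer passed the test: 52 peaks with WT and *Trdn-as* KO libraries alone, 61 to 63 without 1 of these 4 libraries, 50 without either *Mettl3* KO library, 43 with no filter, 35 with no variance trend and 13 with the replicate block. Higher and lower peaks, 156 and 141 as reported, numbered 206 and 232 after cyclic loess normalization, 182 and 214 after median scaling, 188 and 212 after quantile normalization, 129 and 214 when scaled by uniquely mapped reads, 256 and 205 with a robust prior, 53 and 68 with no variance trend, and 9 and 25 with no filter. They numbered 115 and 48 with a value of at least 50, 118 and 70 where CTCF was at least 2 times IgG, 66 and 80 at an adjusted p below 0.01, 76 and 99 with a log2 fold change of at least 1, and 4 and 8 in the model of WT and *Trdn-as* KO libraries alone. Leaving out 1 library gave 0 to 4 higher and 0 to 10 lower peaks. In those fits a group of 1 library is assumed to vary like the others. The median of the chromosome 9 stretch was 0.52 to 0.60 in them. The alternatives reuse the same libraries, and both *Trdn-as* KO values lay outside the WT values at every named peak that changed. A reversed direction could therefore hardly occur, and its absence is no test of the direction.

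The replicate block gave 87 and 101. Replicate deviations of WT and *Trdn-as* KO correlated at -0.24 across peaks, and of the other 2 pairs of genotypes at 0.01 and -0.01, so the numbers did not pair the libraries. With the *Trdn-as* KO numbers crossed, a choice made after seeing the data like the removal of the stretch, the block gave 241 and 187.

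The strongest of 5 classes held 15.5% of the changed peaks, and 9.89% without the stretch. Promoters held 35%, and 14.5% within 1000 nt. Runs held 74.1%, 31.7% with gaps of 100000 nt, 89.6% with 5000000 nt, and 67.8% at an adjusted p below 0.01. The causes of these shifts were not tested. The median SE was 0.28 in the weakest and 0.10 in the strongest class.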
